A study of Mus musculus with 11 samples.

Results

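The genes described here encode the subunits of the receptors for glutamate, GABA and glycine, the fast transmitters of the central nervous system. They were chosen by gene symbol, with earlier results of these data known. They comprised the GABA-A subunits (Gabra to Gabrr), the GABA-B subunits (Gabbr), and the AMPA (Gria), kainate (Grik), delta (Grid) and NMDA (Grin) subunits. The metabotropic glutamate receptors (Grm) and the glycine receptor subunits (Glra and Glrb) were also taken. A gene was taken where a transcript cluster of the array paired with exactly 1 symbol, and the brightest cluster over the 11 arrays was used. This gave 45 of the 30145 named genes. Other genes of these families were not analysed here.

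The study compared the carotid body with the adrenal medulla and the superior cervical ganglion in wild-type C57B6 mice aged 2 months, with males and females in every group. The carotid body senses oxygen in arterial blood, the adrenal medulla secretes catecholamines, and the ganglion holds sympathetic neurons. There were 3 carotid body arrays, each of tissue pooled from 10 mice, and 4 arrays of each other tissue, each pooled from 3 mice. How animals were divided among the pools is not stated, so the spread given below is that between pools. No group was treated, and every group has the same strain and age.

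Glutamate opens the AMPA, kainate and NMDA receptors, which are cation channels of 4 subunits, and it also acts on the metabotropic receptors, which signal through G proteins. GABA opens the GABA-A receptors, chloride channels built of 5 subunits, and acts through the G protein-coupled GABA-B receptor, a dimer of the Gabbr1 and Gabbr2 products. Glycine opens chloride channels made of Glra and Glrb subunits. In sympathetic ganglia fast transmission is mainly cholinergic, and in the carotid body GABA and glutamate are described as modulators beside acetylcholine and ATP.

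Values are log2 signals made by the authors with RMA, and every difference or fold is on that scale. A bound on background signal came from 538 vomeronasal receptor and keratin-associated protein genes taken as silent: the 95th percentile of their tissue means was 5.36 for adrenal medulla, 5.41 for carotid body and 5.45 for ganglion. A tissue mean under its bound is said to lie in the background range. A gene was called between 2 tissues at a limma adjusted p under 0.05 and a log2 difference of at least 1, that is 2-fold. Signals of different genes were not compared with each other, since each cluster has its own probes.

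On average, catecholamine cell genes were highest in the adrenal medulla and neuron genes in the ganglion. No list of markers particular to the carotid body was scored. Adrenal cortex genes were high on the arrays of the medulla. Of 10 catecholamine cell genes 9 were measured, at a mean log2 signal of 15.96 to 16.31 on adrenal medulla arrays, 13.26 to 13.83 on ganglion arrays and 12.36 to 13.35 on carotid body arrays. The mean log2 signal of 15 neuron genes was 13.53 to 13.86 on ganglion arrays, 10.23 to 11.71 on carotid body arrays and 9.42 to 9.86 on adrenal medulla arrays. Carotid body replicates 1, 2 and 3 stood at 11.71, 10.23 and 11.05 on this list. Replicate 2 also stood apart on 6 skeletal muscle genes, at 7.16 against 5.38 and 5.51 on replicates 1 and 3. The 10 adrenal cortex genes averaged 14.88 to 15.37 on adrenal medulla arrays and 5.30 to 5.73 on the arrays of both other tissues, where 6 of the 10 lay in the background range in carotid body and 7 in ganglion. Fibroblast genes averaged 13.94 to 14.12 in carotid body, 9.88 to 10.19 in ganglion and 8.51 to 8.69 in adrenal medulla. Glial genes averaged 10.26 to 10.55, 9.93 to 10.65 and 7.80 to 7.99 in the same order. Pericyte and smooth muscle genes averaged 11.69 to 12.22 on carotid body arrays and 7.27 to 8.61 on the others, and adipocyte genes 8.95 to 9.62 and 5.92 to 6.97. The part of these cells in the receptor results was not tested, and in whole tissue fewer cells of a type and less RNA per cell cannot be told apart. Of all genes called, 55.1% were higher in the carotid body than in the adrenal medulla, 40.4% higher in the carotid body than in the ganglion and 43.3% higher in adrenal medulla than in ganglion. These splits became 44.5%, 36.1% and 49.1% with median centring, and 54.3%, 51.2% and 53.9% with repeated quantile normalization.

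Most of the receptor genes lay in the background range. A mean above the bound was found for 16 of 45 in the adrenal medulla, 16 in the carotid body and 18 in the ganglion, that is 35.6%, 35.6% and 40.0%. Of all named genes 54.1%, 56% and 54.2% lay above it. In at least 1 tissue 20 members were above the bound, against 58.5% of all genes, and 25 were under it everywhere. The 25 were Grik1, Grin2a, Grin2b, Grin2c, Grin2d, Grin3b, Grm2, Grm3, Grm4, Grm5, Grm6, Gabra4, Gabra6, Gabrb1, Gabrb2, Gabrd, Gabrg1, Gabrp, Gabrr1, Gabrr2, Gabrr3 and Glra1 to Glra4. A value in this range sets only an upper limit on the signal.

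**Figure D1:**
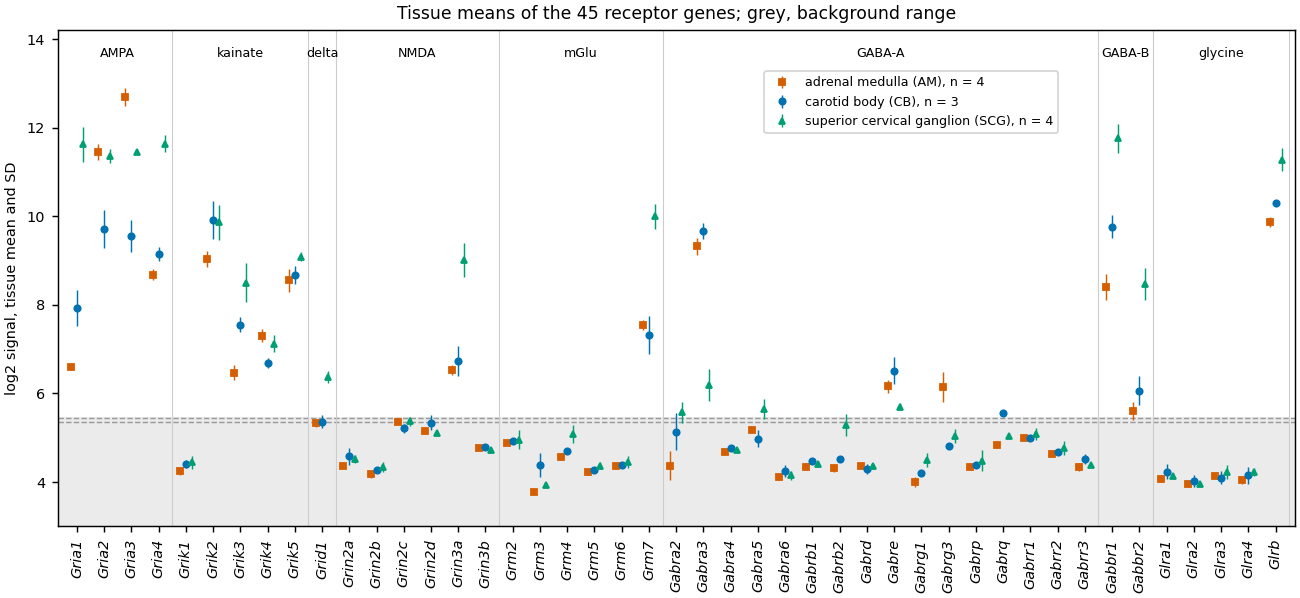
Tissue means (points) with SD over arrays (bars) of the 45 receptor genes on the log2 signal axis, grouped by family; the grey area is the background range and the dashed lines are the lowest and highest bound of the 3 tissues (5.36 and 5.45). The AMPA genes all stand above it, while 5 of 6 NMDA, 5 of 6 metabotropic, 10 of 16 GABA-A and 4 of 5 glycine receptor genes lie within it.

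At least 1 of the 3 comparisons called 14 members, or 31.1%, where 21.6% of all genes were called. Higher in ganglion than in both other tissues were 7 members (15.6%, against 5.07% of all genes): Gria1, Gria4, Grid1, Grin3a, Grm7, Gabbr1 and Gabbr2. Gabra3 was the 1 member lower in ganglion than in both others (2.22%, near the 2.28% of all genes). Gria2 and Gria3 were lower in carotid body than in both others (4.44%, against 1.68% of all genes). No member was higher there than in both others (0%, against 2.41% of all genes). Gria3 and Gabrg3 were higher in adrenal medulla than in both others (4.44%, against 2.45% of all genes). Gria1, Grik3 and Gabbr1 were lower there than in both others (6.67%, against 2.68% of all genes). The comparisons share arrays, so these counts are not independent of each other.

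**Figure D2:**
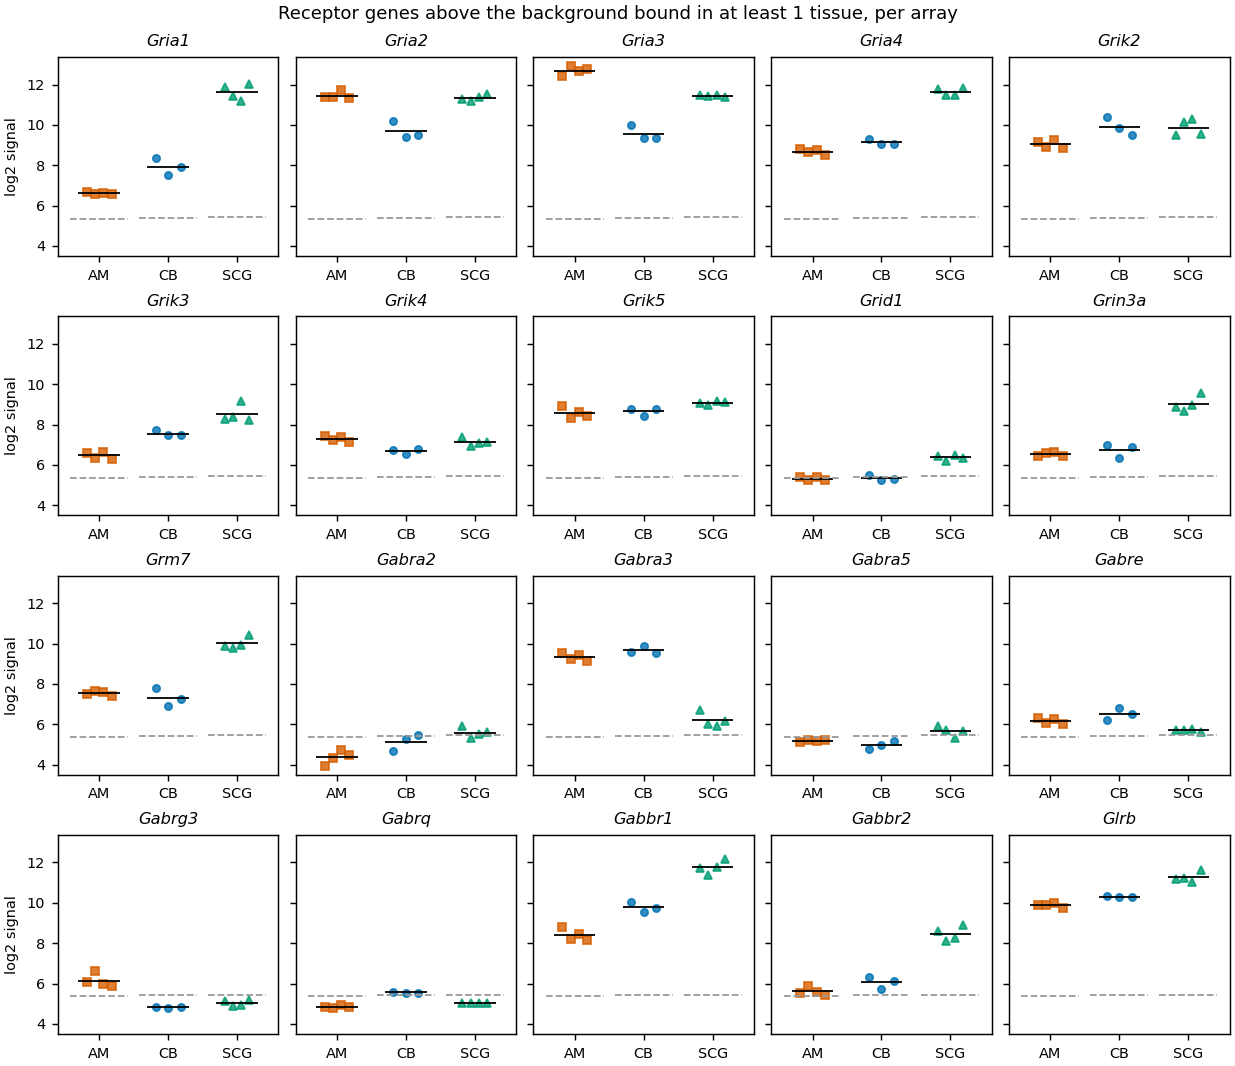
Log2 signal on each array of the 20 receptor genes above the background bound in at least 1 tissue, for adrenal medulla (AM, 4 arrays), carotid body (CB, 3 arrays) and superior cervical ganglion (SCG, 4 arrays); the black line is the tissue mean and the dashed line the bound. Gria1, Gria4, Grm7 and Gabbr1 stand highest in ganglion, Gabra3 lowest there, and Gria2 and Gria3 lowest in carotid body.

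The AMPA receptor subunits were above the bound in every tissue. Gria1 and Gria4 were highest in the ganglion, while Gria2 and Gria3 were lowest in the carotid body. Gria1 (transcript cluster TC1100000654.mm.1) gave 11.88, 11.42, 11.18 and 12.03 on ganglion replicates 1 to 4. On the carotid body arrays it gave 8.34, 7.54 and 7.92, and on the adrenal medulla arrays 6.66, 6.56, 6.61 and 6.59. The groups did not overlap, with ganglion highest and adrenal medulla lowest. The mean was 11.63 ± 0.40 (SD, n = 4) in ganglion, 32.6-fold above the 6.60 ± 0.04 of adrenal medulla (log2 difference -5.03 for adrenal medulla minus ganglion, SE 0.20, limma adjusted p = 1.16e-08). Carotid body, at 7.93 ± 0.40 (n = 3), was 13.0-fold below ganglion (adjusted p = 6e-07) and 2.51-fold above adrenal medulla (adjusted p = 0.000803). Its 3 arrays ranked for Gria1 as they did for the neuron genes, with replicate 1 highest and replicate 2 lowest. The catecholamine cell genes gave the same order (13.35, 12.36 and 12.85 on replicates 1, 2 and 3), as did the glial genes (10.55, 10.26 and 10.27). So did Gria2, Gabbr1, Gabbr2, Glrb and Grin3a, and Gria4 by a narrow margin (9.059 and 9.061 on replicates 2 and 3). Gria3, Grik2, Grik4 and Gabra3 were among the members with other orders. The reason for these orders was not tested. For Gria1 the carotid body difference from adrenal medulla was 1.13 without carotid body replicate 1 and 1.53 without replicate 2.

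Gria4 (TC0900001695.mm.1) also stood highest in ganglion. Its arrays read 11.78, 11.49, 11.48 and 11.82 in ganglion, 9.32, 9.06 and 9.06 in carotid body, and 8.80, 8.66, 8.74 and 8.51 in adrenal medulla. Ganglion exceeded carotid body 5.63-fold (limma adjusted p = 1.34e-07) and adrenal medulla 7.80-fold (adjusted p = 6.81e-09). Carotid body and adrenal medulla differed by only 0.47 (95% interval 0.21 to 0.73, adjusted p = 0.0108), under the 2-fold limit, and this smaller difference was not called.

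Gria2 encodes the subunit whose RNA-edited form makes AMPA receptors poorly permeable to calcium. Gria2 (TC0300002207.mm.1) read 11.36, 11.36, 11.72 and 11.33 on adrenal medulla arrays, 10.21, 9.42 and 9.51 on carotid body arrays, and 11.29, 11.20, 11.39 and 11.55 on ganglion arrays. The carotid body arrays were the 3 lowest, while adrenal medulla and ganglion overlapped. Carotid body, at 9.72 ± 0.43 (n = 3), was 3.31-fold below adrenal medulla (log2 -1.73, SE 0.18, limma adjusted p = 3.6e-05) and 3.12-fold below ganglion (log2 -1.64, adjusted p = 4.12e-05). Adrenal medulla and ganglion differed by 0.08 (95% interval -0.29 to 0.46, adjusted p = 0.73), an interval that leaves out a 2-fold difference.

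Gria3 (TC0X00000388.mm.1) was the AMPA gene called higher in the adrenal medulla than in both other tissues, at 12.44, 12.92, 12.66 and 12.75. Ganglion arrays gave 11.49, 11.44, 11.49 and 11.38, and carotid body arrays 9.98, 9.37 and 9.34. No groups overlapped. Adrenal medulla, at 12.69 ± 0.20 (n = 4), was 8.73-fold above carotid body (log2 -3.13 for carotid body minus adrenal medulla, SE 0.16, limma adjusted p = 1.5e-07) and 2.36-fold above ganglion (adjusted p = 4.77e-05). Ganglion was 3.70-fold above carotid body (adjusted p = 6.08e-06). The adrenal medulla arrays are also those with adrenal cortex genes near 15 on average, and which of their cells held the Gria3 transcript was not tested.

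Of the kainate receptor genes, Grik1 lay in the background range and the other 4 were above the bound in all tissues. Grik3 read 8.26, 8.38, 9.15 and 8.22 in ganglion, 7.75, 7.46 and 7.46 in carotid body, and 6.59, 6.34, 6.63 and 6.31 in adrenal medulla, without overlap. Ganglion was 4.10-fold above adrenal medulla (limma adjusted p = 8.35e-06) and carotid body 2.13-fold above adrenal medulla (log2 1.09, adjusted p = 0.00206). The latter call was lost without carotid body replicate 1 (0.99) and under median centring (0.94). Between carotid body and ganglion the difference was -0.95 (adjusted p = 0.00403), just short of the limit, and it passed at -1.01 to -1.06 in 6 of 19 alternative fits.

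Grik2, a channel-forming subunit like Grik3, averaged 9.92 ± 0.43 in carotid body, 9.86 ± 0.39 in ganglion and 9.04 ± 0.18 in adrenal medulla. Neither difference from adrenal medulla reached 2-fold over all arrays (0.88 for carotid body, adjusted p = 0.0157 from limma, and -0.83 for adrenal medulla minus ganglion, adjusted p = 0.0123). Without carotid body replicate 3 the former was 1.07 and was called. Grik4 and Grik5 encode the subunits that raise the glutamate affinity of kainate receptors and need partners to form channels. Grik4 averaged 7.31 ± 0.14 in the adrenal medulla, 6.69 ± 0.12 in the carotid body and 7.13 ± 0.18 in the ganglion. Grik5 averaged 8.56 ± 0.26, 8.67 ± 0.20 and 9.09 ± 0.10 in the same order. None of the 3 comparisons called either gene, and their differences ran from -0.61 to 0.18.

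NMDA receptors need the Grin1 product, which was not analysed here, together with Grin2 or Grin3 subunits. The Grin2 genes and Grin3b lay in the background range in all tissues, with single arrays between 4.07 and 5.51. Grin3a, which encodes a glycine-binding subunit, was the exception (TC0400002642.mm.1). It read 8.85, 8.68, 8.97 and 9.55 in ganglion against 6.97, 6.34 and 6.89 in carotid body and 6.42, 6.61, 6.65 and 6.43 in adrenal medulla. The ganglion arrays stood apart, and the carotid body and adrenal medulla arrays overlapped. Ganglion was 4.85-fold above carotid body (limma adjusted p = 1.01e-05) and 5.59-fold above adrenal medulla (adjusted p = 1.63e-06). Carotid body and adrenal medulla differed by 0.20 (95% interval -0.25 to 0.66).

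Grid1, a delta receptor gene whose product binds cerebellins rather than being opened by glutamate, was above the bound in ganglion only. It read 6.46, 6.18, 6.49 and 6.36 on ganglion arrays, 5.52, 5.26 and 5.30 on carotid body arrays, and 5.38, 5.26, 5.42 and 5.23 on adrenal medulla arrays. The ganglion arrays stood apart, while the means of 5.36 for carotid body and 5.32 for adrenal medulla lay in the background range. Ganglion was therefore at least 1.96-fold above carotid body (log2 -1.01) and at least 2.02-fold above adrenal medulla (log2 -1.05). Both calls sat at the limit. That against carotid body was lost without carotid body replicate 2 or 3 or without ganglion replicate 1 or 3 (-0.96 to -0.98), and that against adrenal medulla with median centring (-0.97) or repeated quantile normalization (-0.96).

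Among the metabotropic glutamate receptors, Grm2 to Grm6 lay in the background range in every tissue. Grm7 (TC0600001212.mm.1), a group III receptor that lowers cyclic AMP and sits on presynaptic terminals, did not. It read 9.88, 9.78, 9.94 and 10.42 in ganglion, 7.78, 6.92 and 7.24 in carotid body, and 7.49, 7.66, 7.61 and 7.41 in adrenal medulla. Ganglion stood clear of both other tissues, which overlapped. It exceeded carotid body 6.46-fold (limma adjusted p = 2.83e-06) and adrenal medulla 5.51-fold (adjusted p = 1.37e-06). The carotid body arrays again ranked as they did for the neuron, catecholamine cell and glial genes.

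The GABA-A receptor genes were the largest family, and 10 of its 16 members lay in the background range in all tissues. Gabra3 (TC0X00002407.mm.1), an alpha subunit that helps to form the GABA and benzodiazepine sites, was the exception with the largest difference. It read 9.59, 9.87 and 9.53 in carotid body, 9.54, 9.21, 9.43 and 9.11 in adrenal medulla, and 6.72, 6.0, 5.90 and 6.17 in ganglion. Every carotid body and adrenal medulla array stood above every ganglion array. The ganglion mean of 6.20 was above the bound but under the 99th percentile of the same silent genes (6.44). By that stricter bound Gabra3 would lie in the background range in ganglion, and further members would do so in some tissue (given below). Carotid body, at 9.66 ± 0.18 (n = 3), was 11.04-fold above ganglion (log2 3.46, SE 0.19, limma adjusted p = 3.43e-07), and adrenal medulla, at 9.32 ± 0.20 (n = 4), was 8.73-fold above it (log2 3.13, adjusted p = 1.32e-07). Carotid body and adrenal medulla differed by 0.34 (95% interval -0.08 to 0.75, adjusted p = 0.216). The difference between carotid body and ganglion stayed between 3.36 and 3.64 in all 19 alternative fits. Its direction was opposite to that of the neuron genes, of which 14 of 15 were called lower in the carotid body than in the ganglion. In that comparison 8.28% of all genes were called lower. Markers of vessel cells moved in the same direction as Gabra3. All 8 endothelial genes measured were higher in carotid body and 6 of 8 higher in adrenal medulla, each against ganglion, with median differences of 3.59 and 3.92. Of all genes, 5.61% and 5.72% were higher in the same comparisons. The endothelial genes averaged 10.59 to 10.70 on carotid body arrays, 10.72 to 11.04 on adrenal medulla arrays and 7.13 to 7.45 on ganglion arrays. Of 8 pericyte and smooth muscle genes, 7 and 5 were higher in these comparisons (medians 4.58 and 1.22). Vessel markers were not alone in this. Among the 9 catecholamine cell genes, Chga and Chgb exceeded ganglion in both tissues. Their log2 differences were 1.98 and 1.64 for carotid body, and 6.86 and 5.04 for adrenal medulla. Other genes of that list went the opposite way, with 4 called below ganglion for carotid body and 2 for adrenal medulla. Of all genes, 8.28% and 7.5% were called below ganglion in these tissues. The part of vessel cells or catecholamine cells in the Gabra3 result was not tested.

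The promoter of Gabra3 is printed beside those of Gabbr2 and Gria4, which had the opposite tissue pattern, with each CG pair in capitals. These 3 were picked for display after the values were seen. Each run is the 250 bases before the RefSeq start on the gene's own strand (GRCm38.p6), here the minus strand: chrX:72656920-72657169 for Gabra3, chr4:46991715-46991964 for Gabbr2 and chr9:4796235-4796484 for Gria4.
Gabra3: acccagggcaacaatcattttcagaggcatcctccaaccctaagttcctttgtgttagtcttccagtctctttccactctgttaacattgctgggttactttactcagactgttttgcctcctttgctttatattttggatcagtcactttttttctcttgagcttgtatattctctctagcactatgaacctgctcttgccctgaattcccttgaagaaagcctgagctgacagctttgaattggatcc
Gabbr2: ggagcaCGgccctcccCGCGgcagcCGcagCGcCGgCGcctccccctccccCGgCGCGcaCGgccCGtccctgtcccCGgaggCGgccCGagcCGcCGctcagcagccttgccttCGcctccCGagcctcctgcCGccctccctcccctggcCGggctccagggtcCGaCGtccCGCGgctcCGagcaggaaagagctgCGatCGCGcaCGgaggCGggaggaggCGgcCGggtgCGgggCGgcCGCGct
Gria4: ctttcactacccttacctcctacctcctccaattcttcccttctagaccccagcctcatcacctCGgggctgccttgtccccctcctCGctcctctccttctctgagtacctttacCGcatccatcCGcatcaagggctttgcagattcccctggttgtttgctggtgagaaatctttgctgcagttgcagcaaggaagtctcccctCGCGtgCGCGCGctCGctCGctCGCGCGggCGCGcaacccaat
The Gabra3 run held 0 CG pairs, the Gabbr2 run 37 and the Gria4 run 16. The window of the other Gabra3 RefSeq start also held 0, but it overlaps the printed run and is not a separate observation. The median over 32851 such windows was 6, and 7.87% of them held none. RefSeq windows were found for 10 of the 14 called members, and those of the 9 besides Gabra3 held 8 to 42 CG pairs. The GC box GGGCGG, read on both strands, occurred in 8 of the 12 windows of these 10 genes and in 32.7% of all windows. These counts describe the sequence only, and their relation to the signals was not tested.

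Differences between the tissues were smaller for the other GABA-A subunits. Gabrg3, a gamma subunit, read 6.08, 6.64, 6.0 and 5.86 on adrenal medulla arrays, 4.83, 4.79 and 4.86 on carotid body arrays, and 5.13, 4.89, 4.93 and 5.20 on ganglion arrays. The adrenal medulla arrays were the 4 highest, and the means of 4.82 for carotid body and 5.04 for ganglion lay in the background range. Adrenal medulla was at least 1.67-fold above carotid body (fitted log2 -1.32 for carotid body minus adrenal medulla, limma adjusted p = 0.000113) and at least 1.62-fold above ganglion (1.11, adjusted p = 0.000157). The latter was not called without adrenal medulla replicate 2 (0.94). Gabra2 read 5.89, 5.31, 5.51 and 5.59 in ganglion, 4.68, 5.25 and 5.49 in carotid body, and 3.95, 4.33, 4.72 and 4.48 in adrenal medulla. Its mean was above the bound in ganglion only, at 5.57 ± 0.24, and its call against adrenal medulla (-1.21, at least 1.16-fold) was lost when both of its clusters were averaged (-0.74). Gabre averaged 6.51 ± 0.31 in carotid body, 6.16 ± 0.14 in adrenal medulla and 5.70 ± 0.08 in ganglion. Its largest difference, carotid body minus ganglion, was 0.81 (adjusted p = 0.000649), under the limit. Gabrq, which encodes the theta subunit, read 5.60, 5.54 and 5.54 in carotid body, just above the bound, and was in the background range in adrenal medulla and ganglion. Gabra5 was above the bound in ganglion only (5.65 ± 0.23). Neither of the measured beta subunits passed the bound: Gabrb1 averaged 4.35 to 4.47 and Gabrb2 reached 5.28 in ganglion. Though in the background range, Gabrb2 passed the limit between adrenal medulla and ganglion without adrenal medulla replicate 2 (-1.003) or ganglion replicate 3 (-1.07).

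The GABA-B receptor genes were both highest in ganglion. Gabbr1 (TC1700000754.mm.1), whose product binds GABA, read 11.70, 11.39, 11.76 and 12.19 in ganglion, 10.05, 9.53 and 9.72 in carotid body, and 8.79, 8.18, 8.45 and 8.16 in adrenal medulla. The groups did not overlap. Ganglion was 10.3-fold above adrenal medulla (log2 -3.37 for adrenal medulla minus ganglion, limma adjusted p = 1.62e-07) and 3.98-fold above carotid body (adjusted p = 2.66e-05). Carotid body was 2.59-fold above adrenal medulla (log2 1.37, SE 0.21, adjusted p = 0.000472).

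Gabbr2 (TC0400002606.mm.1), whose product couples the dimer to G proteins, read 8.61, 8.10, 8.25 and 8.90 in ganglion, 6.34, 5.71 and 6.13 in carotid body, and 5.53, 5.89, 5.59 and 5.43 in adrenal medulla. Ganglion was 5.30-fold above carotid body (limma adjusted p = 7.97e-06) and 7.26-fold above adrenal medulla (adjusted p = 6.04e-07). The carotid body and adrenal medulla arrays overlapped, with a difference of 0.45 (95% interval -0.01 to 0.91, adjusted p = 0.135). In adrenal medulla the mean of 5.61 ± 0.20 lay only just above the bound.

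Glycine receptors were represented by Glrb, the subunit that tethers the receptor to gephyrin. It read 11.20, 11.22, 11.03 and 11.64 in ganglion, 10.32, 10.29 and 10.30 in carotid body, and 9.88, 9.89, 10.00 and 9.74 in adrenal medulla. Ganglion was 2.63-fold above adrenal medulla (limma adjusted p = 3.76e-06). Its difference from carotid body was -0.97 (adjusted p = 0.000134), short of the limit, and passed it with median centring (-1.04) or without ganglion replicate 3 (-1.05). The ligand-binding alpha subunits Glra1 to Glra4 lay in the background range, with single arrays between 3.92 and 4.42.

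**Figure D3:**
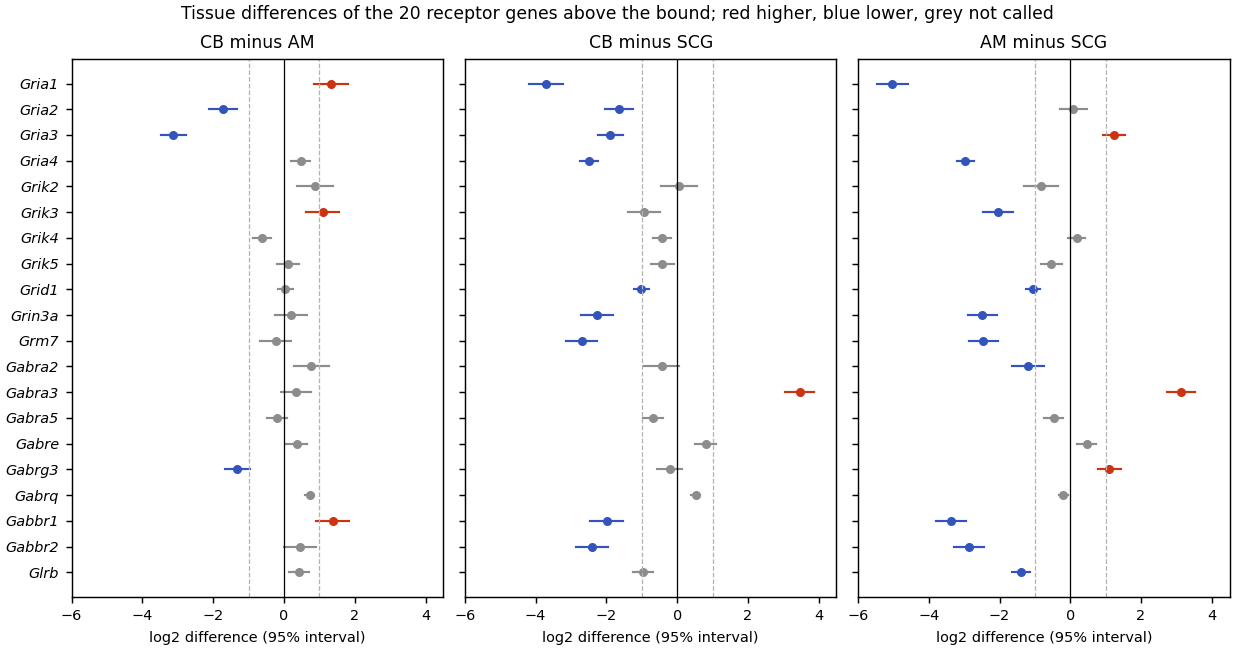
Log2 differences (points) with 95% intervals from limma (lines) of the 20 receptor genes above the bound in at least 1 tissue, for carotid body (CB), adrenal medulla (AM) and superior cervical ganglion (SCG); dashed lines mark the 2-fold limit. Blue lower calls against ganglion run down to -5.03 for Gria1, while Gabra3 is the member whose interval lies wholly above 1 in both comparisons with ganglion.

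By comparison, 3 of 45 members were higher and 3 lower in the carotid body than in the adrenal medulla (6.67% each, against 6.06% and 4.95% of all genes). These shares lie close to the background. Against ganglion, 1 member was higher and 9 were lower in carotid body (2.22% and 20%, against 5.61% and 8.28% of all genes). Adrenal medulla had 3 members higher and 10 lower than ganglion (6.67% and 22.2%, against 5.72% and 7.5% of all genes). The median difference over the 45 members was 0.12, -0.10 and -0.15 in these comparisons, and over all genes 0.05, -0.02 and -0.08. In each comparison the 25 members in the background range everywhere are part of these medians. The direction of the lower calls against ganglion was that of the neuron genes, of which 14 of 15 were lower in carotid body and 13 of 15 in adrenal medulla. Neuron genes were not alone in this. In adrenal medulla 7 of 8 glial and 5 of 8 fibroblast genes were also lower than in ganglion, and 1 fibroblast gene was higher. In carotid body 1 of 8 glial genes was lower than in ganglion, and all 8 fibroblast genes were higher. The part of any cell type in these calls was not tested.

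The genes that make, move and respond to these transmitters were taken from 10 lists, in which 106 genes were measured. Of these, 10 were higher and 18 lower in the carotid body than in the adrenal medulla, 5 higher and 26 lower in the carotid body than in the ganglion, and 12 higher and 23 lower in adrenal medulla than in ganglion. The shares higher were 9.43%, 4.72% and 11.3%, beside 6.06%, 5.61% and 5.72% of all genes. The shares lower were 17.0%, 24.5% and 21.7%, beside 4.95%, 8.28% and 7.5% of all genes. The vesicular glutamate transporters Slc17a6, Slc17a7 and Slc17a8 and the vesicular GABA transporter Slc32a1 lay in the background range in all tissues. So did Gad1 and Gad2, which make GABA. These 6 are named for their roles, chosen after their values were seen.

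Of 10 genes on the glutamate transporter list, 3 were higher in the carotid body than in the adrenal medulla and none lower. Against ganglion 2 were higher and 1 lower, and in adrenal medulla 3 were lower than in ganglion. The shares higher were 30%, 20% and 0%, beside 6.06%, 5.61% and 5.72% of all genes. Those lower were 0%, 10% and 30%, beside 4.95%, 8.28% and 7.5%. The list includes Slc1a4 and Slc1a5, which carry neutral amino acids, so these counts are not of glutamate transporters alone. Slc1a5, a transporter of neutral amino acids such as glutamine, averaged 10.92 in carotid body and was 12.6-fold above adrenal medulla (log2 3.65, limma adjusted p = 1.39e-05) and 3.70-fold above ganglion. Slc1a3, the glial glutamate transporter, was at least 1.42-fold higher in the carotid body than in the adrenal medulla. Slc1a4 was 3.98-fold lower in the carotid body than in the ganglion. Of 5 enzymes of glutamate metabolism, Got1, a glutamate-aspartate aminotransferase, was 9.68-fold lower in the carotid body than in the adrenal medulla and 10.5-fold lower than in ganglion. Got2, its mitochondrial counterpart, was 5.49-fold lower than in ganglion. Naalad2, a peptidase that releases glutamate from N-acetylaspartylglutamate, was 2.64-fold higher in the carotid body than in the adrenal medulla.

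The 10 genes of GABA synthesis, transport and breakdown held 3 that were lower in the carotid body than in the adrenal medulla, 5 lower than in ganglion and none higher. The shares lower were 30% and 50%, beside 4.95% and 8.28% of all genes, and 6.06% and 5.61% of all genes were higher. Abat, the transaminase that breaks GABA down, was 5.96-fold lower in the carotid body than in the adrenal medulla (limma adjusted p = 2.36e-05) and 4.07-fold lower than in ganglion. Maob, a monoamine oxidase that can also feed GABA synthesis, was 18.4-fold lower than in ganglion. Adrenal medulla had 3 genes lower than ganglion (30%, beside 7.5% of all genes). Among them was Slc6a12, a transporter of betaine and GABA, by at least 5.30-fold. Among 5 chloride cotransporters, Slc12a2, which loads cells with chloride, was 2.66-fold lower in carotid body and 3.47-fold lower in adrenal medulla than in ganglion. Neither of the 2 glycine transporters was called.

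Of 27 partners of AMPA and kainate receptors, 2 were higher and 4 lower in the carotid body than in the adrenal medulla, 1 higher and 9 lower in the carotid body than in the ganglion, and 5 higher and 8 lower in adrenal medulla than in ganglion. The shares higher were 7.41%, 3.70% and 18.5%, beside 6.06%, 5.61% and 5.72% of all genes, so the first 2 lie near those of all genes. The shares lower were 14.8%, 33.3% and 29.6%, beside 4.95%, 8.28% and 7.5%. Gsg1l, an auxiliary AMPA receptor subunit, averaged 10.58 in adrenal medulla, 30.8-fold above carotid body (limma adjusted p = 1.73e-11) and 30.1-fold above ganglion. Nptx1, a secreted pentraxin that clusters AMPA receptors, averaged 10.89 in carotid body and was 34.0-fold above ganglion (adjusted p = 1.8e-08). Cacng3, an auxiliary subunit that brings AMPA receptors to the surface, was 15.1-fold lower in the carotid body than in the ganglion. Abhd6, a hydrolase bound to AMPA receptors, was 10.1-fold lower in the carotid body than in the adrenal medulla. Olfm2, an olfactomedin, was at least 18.1-fold lower in adrenal medulla than in ganglion. Of these 5, Nptx1 was highest in the carotid body, Gsg1l and Abhd6 in the adrenal medulla, and Cacng3 and Olfm2 in the ganglion.

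Of 14 scaffold genes, 2 were lower in the carotid body than in the adrenal medulla, 2 lower than in ganglion, and 1 higher and 1 lower in adrenal medulla than in ganglion. These lower shares were 14.3%, 14.3% and 7.14%, beside 4.95%, 8.28% and 7.5% of all genes. The higher share in adrenal medulla against ganglion was 7.14%, beside 5.72% of all genes. Dlg2 was 6.18-fold lower in the carotid body than in the adrenal medulla and 7.20-fold lower than in ganglion. Dlgap1 was 2.05-fold lower in the carotid body than in the adrenal medulla. Dlg4, which encodes PSD-95, was 2.98-fold lower in carotid body and 2.68-fold lower in adrenal medulla than in ganglion, and Dlg1 was 2.08-fold higher in adrenal medulla than in ganglion. Among 8 genes related to delta receptor ligands, C1ql1 averaged 12.54 in adrenal medulla, 29.2-fold above carotid body and 49.4-fold above ganglion. C1ql3 averaged 7.06 in carotid body, at least 3.25-fold above adrenal medulla and at least 3.05-fold above ganglion.

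Of 18 partners of GABA-A and glycine receptors, 2 were higher and 5 lower in the carotid body than in the adrenal medulla, 5 were lower than in ganglion, and 3 were higher and 4 lower in adrenal medulla than in ganglion. The shares lower were 27.8%, 27.8% and 22.2%, beside 4.95%, 8.28% and 7.5% of all genes. The shares higher were 11.1%, 0% and 16.7%, beside 6.06%, 5.61% and 5.72%. Lhfpl3 averaged 9.48 in adrenal medulla and was in the background range elsewhere, at least 16.9-fold below in carotid body. Hap1, a trafficking protein, was 3.46-fold lower in the carotid body than in the adrenal medulla. For Gabarapl1 and Gabarapl2, relatives of the GABA-A receptor-associated protein, ganglion exceeded carotid body 4.46-fold and 4.05-fold. Insyn2b was at least 3.56-fold lower in adrenal medulla than in ganglion. Of 8 partners of the GABA-B receptor, Kcnj3, a potassium channel opened by G proteins, had the largest differences. It averaged 11.80 in ganglion, 8.78 in carotid body and 5.98 in adrenal medulla, so that ganglion was 56.3-fold above adrenal medulla (limma adjusted p = 7.15e-09) and 8.11-fold above carotid body, and carotid body 6.95-fold above adrenal medulla. This is the order of Gabbr1. Kctd16, an auxiliary GABA-B subunit, was at least 1.58-fold lower in adrenal medulla than in ganglion. Kcnj6 was called lower in the carotid body than in the adrenal medulla, with both means in the background range.

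**Figure D4:**
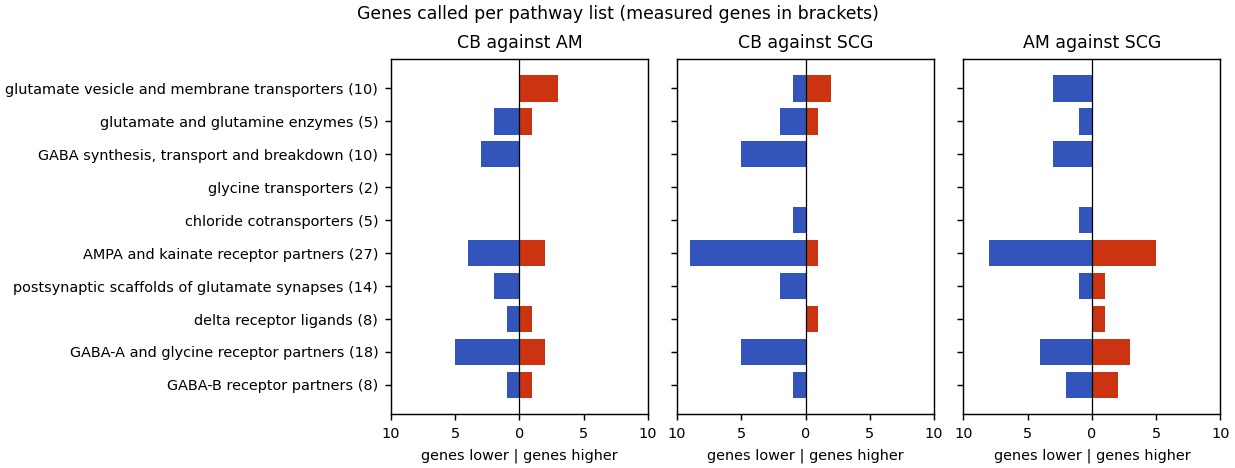
Number of genes called higher (red, to the right) and lower (blue, to the left) in each of 10 lists of genes that make, move or respond to glutamate, GABA and glycine, for carotid body (CB), adrenal medulla (AM) and superior cervical ganglion (SCG); measured genes are in brackets. The list of AMPA and kainate receptor partners holds 9 lower genes for carotid body against ganglion, and calls in both directions for adrenal medulla against ganglion (5 higher, 8 lower).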

How the data were processed

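Total RNA of 11 tissue pools was hybridised to an Affymetrix mouse transcriptome 1.0 array, 1 array per pool, per the labels. The deposited log2 values were made by the authors with the RMA method, and the submitters' processing notes name Affymetrix Expression Console; versions and array build are not given in the sources used here. Raw scans were not used here. Maxima of 19.65 to 19.93 exceed the 16 of a 16-bit scan, so folds hold on the deposited scale only, and the number of arrays limits their precision. Of 72688 rows, 6732 were controls. Clusters with 1 distinct symbol (30604) gave 30145 genes, and 2146 clusters with several symbols were left unnamed.

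One limma fit (limma 3.58.1, R 4.3.3; lmFit, eBayes) with tissue as the only factor gave 3 contrasts, with Benjamini-Hochberg adjustment over all named genes. Folds against a mean under the background bound were computed against the bound and are given as "at least". Every array is given for members called in at least 1 contrast and above the bound in at least 1 tissue, and the others by mean or range. Up to 2 called genes per pathway list and contrast with the largest difference were named, and repeats were left out. Members, lists and tests were chosen with earlier results of these data known. The fit was tested on simulated data with known differences.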

Additional observations from a re-analysis of the deposited data

Results flagged for a closer look

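In 34 groups of 4 arrays (receptor genes above the bound in adrenal medulla or ganglion) the array farthest from the rest was compared with the spread of its group, and 2 stood apart by Dixon's 95% limit on that gap (0.905 and 0.832 of the range); about 1 in 20 groups do so by chance. Gria2 read 11.72 on adrenal medulla replicate 3, and 11.33 to 11.36 on the other 3 arrays. Without that array the carotid body minus adrenal medulla difference of Gria2 was -1.64, and it was still called. Grik3 read 9.15 on ganglion replicate 3, and 8.22 to 8.38 on the other 3. Without it the adrenal medulla minus ganglion difference of Grik3 was -1.82, still called, and that of carotid body minus ganglion was -0.73.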

How the results depend on the processing

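The counts of members called stayed within 1.5 times their value in all 19 alternative fits: 2 to 4 higher and 3 lower in the carotid body than in the adrenal medulla, 1 higher and 8 to 11 lower in the carotid body than in the ganglion, and 2 to 3 higher and 9 to 11 lower in adrenal medulla than in ganglion. With the replicate number as a block (replicate block) the counts were 3 and 3, 1 and 10, and 3 and 10 in the same order. Deviations from the tissue means correlated at -0.17 to 0.25 in 10 same-numbered pairs and at -0.34 to 0.34 in 30 other pairs. Whether same-numbered arrays share animals is not stated, and with so few arrays these correlations cannot decide it. The members above the bound numbered 13, 11 and 13 in adrenal medulla, carotid body and ganglion with the 99th percentile, and 20, 18 and 20 with olfactory receptor genes as reference. With the 99th percentile Grid1, Gabrg3, Gabra2, Gabra5, Gabre and Gabrq lay in the background range in every tissue. Gabbr2 did so in carotid body and adrenal medulla, Grin3a and Grik4 in carotid body, and Gabra3 in ganglion. Folds against these means would then be lower limits. Of the differences of all 45 members recomputed under an alternative (only 20 members are tested where dim genes are removed), 2468 kept their side of the threshold, 10 lost a call, 12 gained one and no called difference changed sign; those that changed belonged to Gabra2, Gabrb2, Gabrg3, Glrb, Grid1, Grik2 and Grik3. Gabra2 was also called higher in the carotid body than in the adrenal medulla without carotid body replicate 1 (1.00). No called difference moved by more than 1.38-fold. Signals in the background range limit what can be said of 25 members.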

Other observations

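For the 3 members with the largest difference, the protein-coding genes with the most similar profile over the 11 arrays were listed, as a description over arrays that share tissues. Gria1 was followed most closely by Hpcal4, a neuronal calcium sensor (Pearson's r = 0.999), Trim36 (0.998) and Colq, the collagen tail of acetylcholinesterase (0.998). Gabra3 was followed by Gm4788 (0.996), Adm, which encodes the vasodilator adrenomedullin (0.993), and C1rb (0.991). For Adm the log2 difference from ganglion was 5.998 in carotid body and 5.48 in adrenal medulla. Gabbr1 was followed by Klc1, a kinesin light chain (0.997), Tmtc1 (0.996) and Rgmb, a co-receptor for bone morphogenetic proteins (0.995).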
